A study of Mus musculus with 6 samples.

Results

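The genes described here are 48 nuclear receptors, liver transcription factors and coregulators, measured in liver of chromogranin A (Chga) knockout and wild-type mice. The 48 symbols were given as a list. Each was represented by its brightest Affymetrix probe set, the one with the highest mean log2 value among probe sets annotated to that gene alone. Of the 48 genes, 45 had such a probe set, among 12393 genes represented in the same way on the array. Nr1h2, Nr3c2 and Ncor1 had none and are not analysed here. Of the 45, 39 passed the filter on dim probe sets and were tested. Ppard, Rara, Vdr, Esr1, Nr2f1 and Nr6a1 did not pass it and are given by their values only.

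Nuclear receptors are transcription factors whose activity is set by small lipophilic ligands such as fatty acids, oxysterols, bile acids, retinoids and thyroid hormone. Many of those in liver bind DNA next to a retinoid X receptor, at repeats of a hexamer close to AGGTCA, and recruit coactivators when ligand is bound and corepressors when it is not. In hepatocytes they run lipid, bile acid and xenobiotic metabolism on top of a set of liver-enriched factors, such as HNF4A, the forkhead factors and the NFI family, that maintain the hepatocyte programme.

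The study measured liver RNA from 6 male mice aged 12 weeks, 3 of the chromogranin A knockout strain and 3 wild type, on 1 array each. Chromogranin A is a prohormone of neuroendocrine secretory granules and the precursor of peptides such as catestatin and pancreastatin. The labels trace both groups to the same earlier publication but give no genetic background, feeding state or hour of dissection, and nothing beyond the count of mice says how the samples were taken, so the p-values cover the spread between these arrays alone. Values are linear intensities in arbitrary units, and changes are differences of log2(intensity + 16), knockout minus wild type, from 1 limma fit over all kept probe sets, with the standard error (SE) of the fit. A change on this scale understates that of a dim gene.

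On the 6 arrays, 64.4% to 76.9% of probe sets lay above the background reference, the 95th percentile of 27 dim bacterial control probe sets, which ran from 151 to 322 units. Over the 13576 kept probe sets, arrays correlated at 0.964 to 0.974 within groups and 0.960 to 0.967 across them. The 10 measured hepatocyte markers were above background on all 6 arrays, with summed intensities of 1213679 to 1379541 in knockout and 1166217 to 1271539 in wild type, as the liver label implies. Chga itself was dim in both groups, at 61.5, 44.5 and 231 on the knockout arrays and 167, 185 and 42.5 on the wild-type arrays, with 2 of 6 arrays above background, so its probe set does not check the genotype labels. In bulk tissue, fewer cells of a type and less RNA per cell cannot be told apart. Of the tested markers, 10 of 11 for Kupffer cells and macrophages and 8 of 9 for stellate cells and fibroblasts had lower mean log2 values in knockout liver. None of them passed the adjusted threshold. At an unadjusted p under 0.05 there were 1 (9.09%) and 3 (33.3%), against 10.3% of all genes. The knockout arrays were lower without overlap for 1 (9.09%) and 3 (33.3%), against 7.84% of all genes. Marco, a Kupffer cell marker, was above background on 0 arrays. Their summed levels overlapped between groups, at 22369 to 34200 against 28507 to 37176 and at 25476 to 31473 against 29716 to 37908. Sums of endothelial (21057 to 22970 against 21023 to 22167), cholangiocyte (736 to 833 against 728 to 1153), lymphocyte (2011 to 2407 against 1792 to 2250) and neutrophil markers (1249 to 2123 against 1245 to 1697) overlapped too, and the 5 cholangiocyte markers were all below the filter. The part of cell composition in the values below was not tested.

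The promoters of Ppara and Pparg are shown because these related receptors had the smallest p-values among the members and their values differed in opposite directions between the groups. Each sequence is the 150 bases before an annotated transcription start from RefSeq (build GRCm38.p6), 5′ to 3′ on the plus strand, where both genes lie. Capitals mark the hexamer AGGTCA, searched on both strands. The Ppara window is chr15:85735626-85735775. The Pparg windows, which precede 3 annotated starts, are chr6:115360994-115361143, chr6:115362199-115362348 and chr6:115421916-115422065.
Ppara: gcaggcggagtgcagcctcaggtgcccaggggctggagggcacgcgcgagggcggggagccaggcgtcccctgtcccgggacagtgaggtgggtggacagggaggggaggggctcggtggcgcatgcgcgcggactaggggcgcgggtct
Pparg start 1: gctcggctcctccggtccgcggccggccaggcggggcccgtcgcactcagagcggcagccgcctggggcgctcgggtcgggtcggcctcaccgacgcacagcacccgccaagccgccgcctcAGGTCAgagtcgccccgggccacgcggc
Pparg start 2: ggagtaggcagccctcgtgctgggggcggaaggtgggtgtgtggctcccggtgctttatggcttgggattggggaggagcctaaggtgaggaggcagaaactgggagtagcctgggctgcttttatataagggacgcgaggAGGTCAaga
Pparg start 3: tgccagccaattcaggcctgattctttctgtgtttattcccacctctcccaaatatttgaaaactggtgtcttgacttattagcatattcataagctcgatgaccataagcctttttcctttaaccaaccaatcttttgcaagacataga
The hexamer stood 28 bases before Pparg start 1 and 9 bases before start 2, counted from the first base of the hexamer. The Ppara window and the window of Pparg start 3 do not hold these letters. Of 32851 promoter windows of this length, 2820 (8.58%) held the hexamer, and so did 7 of the 68 windows (10.3%) that belong to the 45 members with an entry. The match is a description of the sequence and not evidence of a binding site.

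Across the 39 tested members, limma called 0 at an adjusted p under 0.05 (Benjamini-Hochberg over all kept probe sets). The same threshold called 51 of 13576 probe sets (0.376%) and 34 of 8047 genes taken by their brightest probe set (0.423%). At an unadjusted p under 0.05 there were 6 members (15.4%), against 10.3% of all genes tested. They were Ppara, Pparg, Rxrb, Nr1d2, Nfic and Usf1, with Pparg and Nfic higher and the other 4 lower in knockout liver. The 2 groups of arrays did not overlap for 3 members that were higher in knockout (7.69%, against 7.77% of all genes) and for 5 that were lower (12.8%, against 7.84%).

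**Figure D1:**
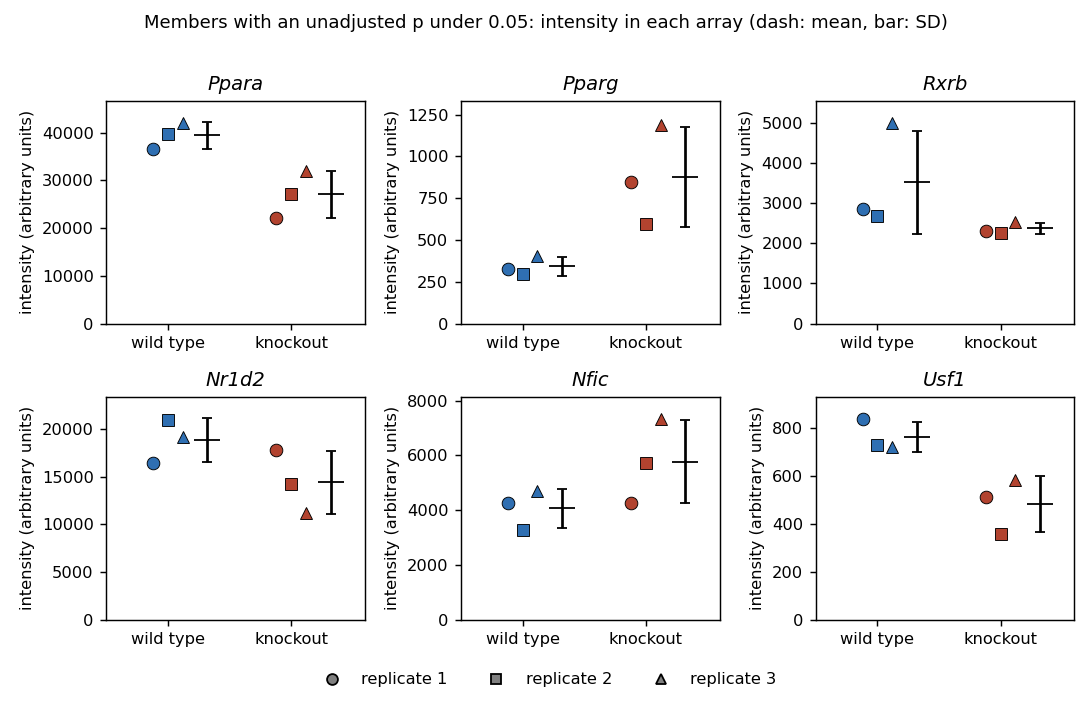
Intensity (arbitrary units, linear axes from 0) of the 6 members with an unadjusted p under 0.05, 1 panel per gene. Symbols are single arrays, dashes group means and bars the SD over 3 arrays. The groups do not overlap for Ppara, Pparg, Rxrb and Usf1, and overlap for Nr1d2 and Nfic.

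The members spread about as widely as other genes. Their median change was -0.058, beside -0.015 for all genes tested, and the median size of a change without its sign was 0.19, beside 0.16. Changes ran from -0.66 to 1.28, with 16 members higher and 23 lower in knockout liver. Of the 39, which the filter on dim probe sets had selected for brightness, 38 were above background on all 6 arrays. For 32 of the 39 the 95% interval of the change lay within 2-fold in either direction, so a larger difference in those transcripts lies outside the interval of the fit.

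**Figure D2:**
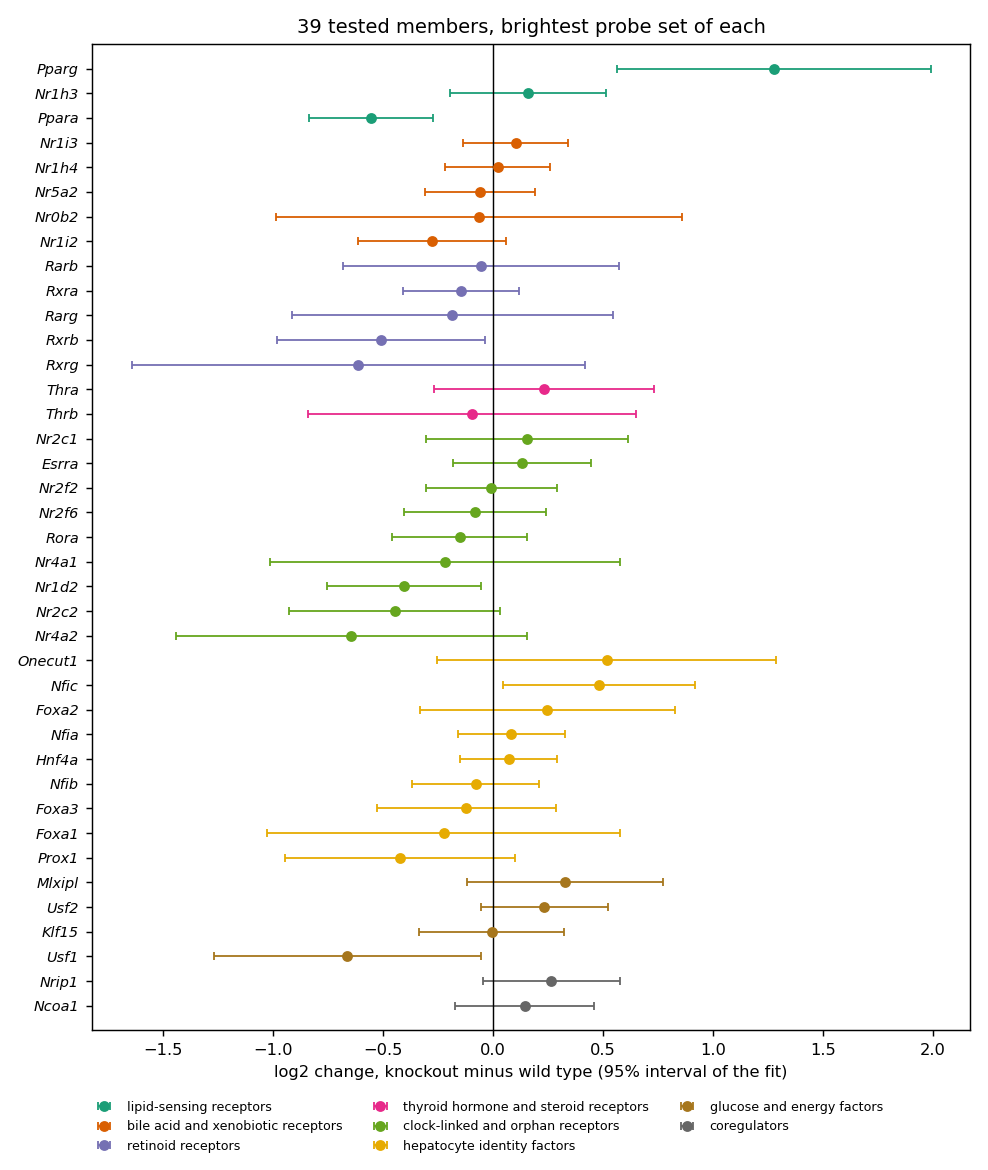
Log2 change (knockout minus wild type, horizontal axis) of the 39 tested members, with the 95% interval of the fit as a bar and colour giving the role. Intervals of 6 members, Ppara, Pparg, Rxrb, Nr1d2, Nfic and Usf1, do not cross 0, and adjusted p-values over the 39 ran from 0.113 to 0.991.

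Among the lipid-sensing receptors, Ppara was lower and Pparg higher on every knockout array than on any wild-type array. PPARA is the fatty acid receptor that drives hepatic fatty acid oxidation and ketogenesis in fasting. Its intensities were 22052, 27163 and 31889 on the knockout arrays and 36473, 39689 and 42027 on the wild-type arrays. The highest knockout array was below the lowest wild-type array. The means were 27035 ± 4920 (SD, n = 3) in knockout against 39396 ± 2788 in wild-type liver, with a log2 change of -0.56 ± 0.13 (SE), or 1.47-fold. In the limma fit the unadjusted p was 0.00126 and the adjusted p 0.113, which misses the threshold. With 1 array left out in turn, the change ran from -0.68 to -0.42 and the adjusted p by limma from 0.0437 to 0.343. The lowest p came without knockout replicate 3, the knockout array nearest wild type, and was the only one of the 16 alternatives under 0.05.

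PPARG, the lipid storage receptor of adipocytes, is expressed at a low level in normal liver. Its probe set read 844, 595 and 1188 on the knockout arrays and 325, 294 and 406 on the wild-type arrays. Every wild-type array was above its own background reference, and every knockout array was above every wild-type array. The change was 1.28 ± 0.32 (95% interval 0.56 to 1.99), with the largest size among the 39 tested members and an unadjusted p of 0.00243 in limma (adjusted p = 0.154). Adipocyte markers, a list added after these values were seen, did not separate the groups. The summed level of the 5 measured ran from 1783 to 3554 in knockout and from 1705 to 2820 in wild type. Lep was above background on 0 of 6 arrays and Adipoq on 3 of 6.

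NR1H3, or LXR alpha, is the oxysterol receptor that induces sterol export and lipogenesis. Its intensities were 2404, 3413 and 3316 on the knockout arrays and 2748, 2492 and 2855 on the wild-type arrays. Knockout replicate 1 was the lowest of all 6 arrays and the other knockout arrays were the highest, so the groups overlapped. The change was 0.16 ± 0.16, with a 95% interval of -0.20 to 0.51. Ppard, the broadly expressed member of the PPAR family, was above background on 0 of 6 arrays, at 23.8 to 49.2 units.

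Genes known as targets of these receptors were counted from lists chosen with earlier results in view. For this and every later list, the shares over all genes tested are 0.423% past the adjusted threshold and 10.3% at an unadjusted p under 0.05. Of 19 tested PPARA targets, 8 were higher and 11 lower, 0 passed the adjusted threshold (5 at an unadjusted p under 0.05), and the median change was -0.0017. The 3 with the smallest p did not share a direction. Cd36, a fatty acid transporter, read 2787, 1719 and 3043 against 855, 1239.8 and 697 (knockout against wild type), a change of 1.42 ± 0.26 with an adjusted p of 0.0504 by limma. Cyp4a14, a fatty acid hydroxylase, read 9305, 6108 and 9171 against 16222, 23194 and 11441, a change of -1.01 ± 0.24. Cpt1a, which admits long-chain fatty acids to mitochondria, read 19517, 23425 and 22298 against 27334, 25331 and 27869, a change of -0.31 ± 0.098. The groups did not overlap for any of these 3 genes. Among 5 tested PPARG targets, a list added after the Pparg values were seen, 2 were higher and 3 lower with a median of -0.015, and 0 passed (2 at an unadjusted p under 0.05). They included Cd36, the fatty acid binding protein Fabp4 at -0.015 ± 0.45 and the lipase Lpl at -1.01 ± 0.33.

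The LXR targets split 6 and 6 over 12 tested, with a median of 0.0013, 1 call in each direction and 6 at an unadjusted p under 0.05. Fasn, the fatty acid synthase, rose. Its intensities were 22949, 16709 and 25934 on the knockout arrays and 6636, 9625 and 5843 on the wild-type arrays, without overlap. The change was 1.58 ± 0.20, or 2.98-fold (limma, adjusted p = 0.00697). Abcg8, a subunit of the canalicular sterol exporter, fell, at 3813, 4340.3 and 4556 against 7722, 6350.3 and 7669.5, by a change of -0.77 ± 0.13 (limma, adjusted p = 0.0369). Its partner Abcg5 read 9209, 11693 and 11378 against 12429, 16620.2 and 14080.2, a change of -0.42 ± 0.13 that did not pass. Pltp, the phospholipid transfer protein, had a change of 1.13 ± 0.31, with knockout replicate 3 at 15409 against 5527 and 5987 on the other knockout arrays.

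The receptors for bile acids and xenobiotics were measured with standard errors of 0.11 to 0.15, apart from Nr0b2. Of 5 tested, 2 were higher and 3 lower, and 0 had an unadjusted p under 0.05. NR1H4, or FXR, the bile acid receptor, read 13921, 13024 and 12808 on the knockout arrays and 13164, 14587 and 11590 on the wild-type arrays. These values overlapped fully, with a change of 0.020 ± 0.11 and a 95% interval of -0.22 to 0.26. NR0B2, or SHP, is the corepressor that FXR induces to repress bile acid synthesis. It read 5487, 1915 and 3926 on the knockout arrays and 5521, 4584 and 1867 on the wild-type arrays. Both groups were widely spread and overlapped, and the change of -0.065 ± 0.42 has a 95% interval of -0.99 to 0.86. The interval thus holds differences in either direction, down to nearly 2-fold lower in knockout. NR5A2, or LRH-1, which activates bile acid synthesis genes, read 14033, 14016 and 12164 on the knockout arrays and 13078, 13018 and 15864 on the wild-type arrays. The groups overlapped, and the change was -0.058 ± 0.11 (95% interval -0.31 to 0.19).

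NR1I2, or PXR, the receptor for many drugs, was lower on every knockout array by its brightest probe set, at 1546, 1592 and 1733 on the knockout arrays and 1799.6, 2191 and 1935 on the wild-type arrays. The change was -0.28 ± 0.15 (95% interval -0.61 to 0.059). A further Nr1i2 probe set had overlapping groups and a change of 0.052 ± 0.22, so the separation holds for the brighter probe set only. NR1I3, or CAR, the receptor that mediates induction by phenobarbital, read 8582, 8068 and 7455 on the knockout arrays and 7301, 8018 and 7114 on the wild-type arrays. The groups overlapped, with a change of 0.10 ± 0.11 and a 95% interval of -0.14 to 0.34. Vdr, the vitamin D receptor, was above background on 1 of 6 arrays, a wild-type one, at 59.5, 102 and 55.2 against 130.4, 60.9 and 366 (knockout against wild type).

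Of 10 tested FXR targets, 7 were higher and 3 lower, with a median change of 0.16, 0 past the threshold and 4 at an unadjusted p under 0.05. The list pools genes that FXR induces with genes repressed through SHP, so neither count nor median gives 1 direction of receptor activity. The repressed Cyp7a1 (0.16 ± 0.20), Cyp8b1 (0.057 ± 0.28) and Slc10a1 (0.25 ± 0.092) were among the 7 higher. The 3 lower were Abcb4, Apoc2 and Fetub. The bile salt export pump Abcb11 read 25438, 22584 and 26586 against 18995, 16767 and 17773. All knockout arrays were above all wild-type arrays, a change of 0.48 ± 0.099 with an adjusted p of 0.0748 in limma. The proteoglycan Sdc1 (0.37 ± 0.085) and the bile acid conjugating enzyme Baat (0.31 ± 0.097) were also higher without overlap and did not pass. Of 14 CAR and PXR targets, 7 were higher and 7 lower, with a median of 0.012, 1 call and 6 at an unadjusted p under 0.05. The cytochrome P450 gene Cyp3a13 fell. Its intensities were 7102, 6810.3 and 6122 on the knockout arrays and 17593, 26096 and 18912 on the wild-type arrays, a change of -1.62 ± 0.15 or 3.08-fold (limma, adjusted p = 0.000746). Cyp2b10, a marker of CAR activity whose probe set may also read near-identical family members, was at -0.78 ± 0.21 and did not pass. Aldh1a1, a retinaldehyde dehydrogenase, was at 0.43 ± 0.095 and did not pass either. Cyp3a11, another PXR target, was at 0.11 ± 0.083, with overlapping groups.

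By their brightest probe sets, all 5 tested retinoid receptors had lower mean log2 values in knockout liver, and 1 had an unadjusted p under 0.05. This shared direction did not hold for the further tested probe sets of Rxra and Rarg. RXRA, the main hepatic partner of many of the receptors above, read 6258, 7156 and 6571 on the knockout arrays and 8369, 7098 and 6744 on the wild-type arrays. Its groups overlapped, with a change of -0.15 ± 0.12 (95% interval -0.41 to 0.12), and its other probe set stood at 0.096 ± 0.14. RXRB, another such partner, read 2317, 2269 and 2532 on the knockout arrays and 2865, 2692 and 5007 on the wild-type arrays. The groups did not overlap, but wild-type replicate 3 was far above the other wild-type arrays. The change was -0.51 ± 0.21 (limma, unadjusted p = 0.0374, adjusted p = 0.469), and it was -0.23 without that array. RXRG read 178, 657 and 748 on the knockout arrays and 603, 753 and 737 on the wild-type arrays. Knockout replicate 1 was below background and the remaining arrays lay close together, so the change of -0.61 ± 0.47 rests on that array and turned sign without it. The retinoic acid receptors Rarb and Rarg had changes of -0.054 ± 0.28 and -0.19 ± 0.33 with overlapping groups. The other tested Rarg probe set stood at 0.11 ± 0.51. Rara was above background on 0 of 6 arrays, at 21.5 to 36.4 units.

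Of the 4 retinoic acid targets tested, 3 were higher and 1 lower, the median was 0.12, and 0 passed (1 at an unadjusted p under 0.05). Cyp26a1, which degrades retinoic acid, read 2653, 4012 and 2842 against 1492, 1341 and 2320.3. The groups did not overlap, and the change of 0.89 ± 0.23 had an adjusted p of 0.154 in limma. The transglutaminase Tgm2 (0.17 ± 0.15), Dhrs3 (0.078 ± 0.11) and the retinol esterifying enzyme Lrat (-0.24 ± 0.40) overlapped between groups.

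Neither thyroid hormone receptor had an unadjusted p under 0.05. THRB, the main thyroid hormone receptor of liver, read 655, 445 and 388 on the knockout arrays and 397, 492 and 712 on the wild-type arrays. The groups overlapped almost completely, and the change was -0.096 ± 0.34 (95% interval -0.84 to 0.65). THRA stood at 0.23 ± 0.23 with overlapping groups, and at a lower mean in knockout by its other tested probe set (-0.18). Esr1, the estrogen receptor, read 41.7, 351 and 51.0 on the knockout arrays and 52.7, 24.2 and 94.1 on the wild-type arrays. It was above background on 1 of 6 arrays, knockout replicate 2, and was not tested. Of 7 thyroid hormone targets, 3 were higher and 4 lower, with a median of -0.061, 0 past the threshold and 4 at an unadjusted p under 0.05. The malic enzyme Me1 was at 0.71 ± 0.14 and the lipogenic regulator Thrsp at 0.80 ± 0.18, both higher without overlap. Klf9, a thyroid and glucocorticoid responsive factor, was at -0.48 ± 0.12, lower without overlap. Their adjusted p-values were 0.0709, 0.0913 and 0.132 in limma.

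Among the clock-linked and orphan receptors, 2 of 9 tested were higher and 7 lower. NR1D2, or REV-ERB beta, is a heme-binding repressor of the clock whose level cycles through the day. Its brightest probe set read 17785, 14271 and 11179 on the knockout arrays and 16465, 20979 and 19136 on the wild-type arrays. Knockout replicate 1 lay within the wild-type range and the other knockout arrays below it. The change was -0.41 ± 0.16 (limma, unadjusted p = 0.0274, adjusted p = 0.436), and -0.24 without knockout replicate 3. A dimmer Nr1d2 probe set read 914, 109 and 95.3 on the knockout arrays and 702, 795 and 722 on the wild-type arrays. Knockout replicate 1 was above all wild-type arrays and the other knockout arrays were below background, so no size is given for the difference. The related repressor Nr1d1, outside the 48, was at -0.29 ± 0.25, with overlapping groups.

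NR4A1, an immediate-early orphan receptor induced by cAMP, read 1243, 571 and 441 on the knockout arrays and 668, 1010.1 and 739 on the wild-type arrays. Knockout replicate 1 was the highest knockout array, and the change of -0.22 ± 0.36 has an interval of -1.01 to 0.58. Its relative NR4A2 read 282, 382 and 312 on the knockout arrays and 474, 386 and 738 on the wild-type arrays. The groups did not overlap, although the highest knockout value and the lowest wild-type value lay close together. The change was -0.64 ± 0.36, with an interval of -1.45 to 0.16. A further Nr4a2 probe set, below the filter, had overlapping groups and a change of 0.062, so the separation holds for the brighter probe set only. RORA, the activator that competes with the REV-ERB proteins, was at -0.15 ± 0.14 and the testicular receptors Nr2c1 and Nr2c2 at 0.15 ± 0.21 and -0.45 ± 0.22. The chicken ovalbumin upstream promoter factors Nr2f2 and Nr2f6 were at -0.0074 ± 0.14 and -0.083 ± 0.15. The other tested Nr2f6 probe set stood at 0.33 ± 0.22. ESRRA, a regulator of mitochondrial genes, was at 0.13 ± 0.14. Groups overlapped for each of these 6 genes. Nr2f1, above background on 2 of 6 arrays, read 193, 132 and 116 against 80.7, 222 and 139.9 (knockout against wild type). Nr6a1, above background on 4, read 321, 286 and 105 against 375, 304 and 307. Neither was tested, and the groups overlapped for both genes. The 4 tested ROR and REV-ERB targets split 3 higher and 1 lower with a median of 0.14 and 0 at an unadjusted p under 0.05. The 3 with the smallest p were Nfil3 at 0.51 ± 0.37, the elongase Elovl3 at 0.25 ± 0.21 and the clock repressor Cry1 at 0.035 ± 0.21, each with overlapping groups.

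The hepatocyte identity factors were 5 higher and 4 lower by their brightest probe sets, on which the groups overlapped for all 9. HNF4A, an orphan receptor and central factor of the hepatocyte programme, read 32411, 33686 and 29279.8 on the knockout arrays and 30228, 27425 and 33192 on the wild-type arrays. All 6 arrays lay within 27425 to 33686, and the change was 0.072 ± 0.10 with a 95% interval of -0.15 to 0.29. Its 4 tested probe sets gave changes from -0.21 to 0.072. FOXA2, a pioneer factor, read 2479, 4387 and 3479 on the knockout arrays and 2723, 2015 and 4117 on the wild-type arrays. Both groups were widely spread, and the change was 0.25 ± 0.26 (95% interval -0.33 to 0.83). Its relatives Foxa1 and Foxa3 were at -0.22 ± 0.36 and -0.12 ± 0.18.

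NFIC, a CCAAT-box binding factor, was the identity factor with the smallest p. It read 4268, 5735 and 7325 on the knockout arrays and 4254, 3292 and 4684 on the wild-type arrays. Knockout replicate 1 was level with wild-type replicate 1 and the other knockout arrays exceeded every wild-type array. The change was 0.48 ± 0.20 (limma, unadjusted p = 0.0337, adjusted p = 0.455), 0.29 without knockout replicate 3, and 0.25 over the mean of its probe sets, the others of which were below the filter. The related Nfia and Nfib were at 0.082 ± 0.11 and -0.079 ± 0.13. A further Nfib probe set, below the filter, was lower in knockout without overlap. It read 236, 60.1 and 287 on the knockout arrays and 424.5, 447 and 368 on the wild-type arrays. The other tested Nfib probe sets, at -0.13 each, had overlapping groups. ONECUT1, or HNF6, read 3814, 4684 and 4360.5 on the knockout arrays and 4283, 1421 and 4331 on the wild-type arrays. Wild-type replicate 2 was far below the other 5 arrays and was also the lowest by a further probe set, at 757 where the others ran from 1543 to 3194. By the brightest probe set the change of 0.52 ± 0.35 turned sign without that array. The further probe set had a change of 0.75 ± 0.36 over all 6 arrays, with overlapping groups. PROX1, a factor of hepatocyte specification, was at -0.42 ± 0.24 with overlapping groups.

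HNF4A targets were mostly above 0 by small amounts, 10 higher and 3 lower of 13 tested, with a median of 0.087, 0 past the threshold and 3 at an unadjusted p under 0.05. The hepatocyte markers, which share Apob, Apoa1 and Ttr with this list, were placed alike, with 8 of 10 higher and a median of 0.098. Apoc3, an inhibitor of lipoprotein clearance, read 113059, 120005 and 123626 against 96033, 88243 and 87041. The knockout arrays were above all wild-type arrays, a change of 0.40 ± 0.079 with an adjusted p of 0.0669 by limma. The gluconeogenic enzyme Fbp1 was at 0.22 ± 0.079 and the apolipoprotein Apoa2 at 0.22 ± 0.089.

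The factors that couple glucose to transcription had changes of both signs. MLXIPL, or ChREBP, the glucose-sensing activator of lipogenesis, read 10482, 6214 and 7212 on the knockout arrays and 5078, 7818 and 5986 on the wild-type arrays. Knockout replicate 1 was the highest of all 6 arrays, the others overlapped, and the change was 0.33 ± 0.20 (95% interval -0.12 to 0.77). USF1, an E-box factor, read 515, 357 and 584 on the knockout arrays and 838, 731 and 723 on the wild-type arrays. Every knockout array was below every wild-type array, with a change of -0.66 ± 0.28 (limma, unadjusted p = 0.0353, adjusted p = 0.463). Its other tested probe set was at -0.49 ± 0.36 with overlapping groups. USF2, its dimer partner, was higher on every knockout array by its brightest probe set (0.23 ± 0.13) but stood at -0.13 by the other. KLF15, a fasting-linked activator of gluconeogenesis and amino acid catabolism, read 12169, 8899.9 and 8600.5 on the knockout arrays and 8828, 11246 and 9499.7 on the wild-type arrays. The groups overlapped, with a change of -0.0060 ± 0.15 and a 95% interval of -0.34 to 0.32.

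Targets of ChREBP were mostly higher in knockout liver. Of 12 tested, 10 were higher and 2 lower, with a median change of 0.47 beside -0.015 for all genes, and 1, Fasn, passed (7 at an unadjusted p under 0.05). The list shares Fasn with the LXR targets and Me1 and Thrsp with the thyroid hormone targets. Khk, which phosphorylates fructose, read 24608, 23586 and 23656 against 17986, 17346 and 16059.7. The knockout arrays were above all wild-type arrays, a change of 0.48 ± 0.089 with an adjusted p of 0.0504 in limma. Txnip (-0.41 ± 0.25) and Arrdc4 (-0.19 ± 0.30), a pair of arrestin-related genes that ChREBP and its paralogue induce, were the 2 with lower means and overlapped between groups. The list was chosen with earlier results of these arrays known, so its direction is not independent evidence.

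**Figure D3:**
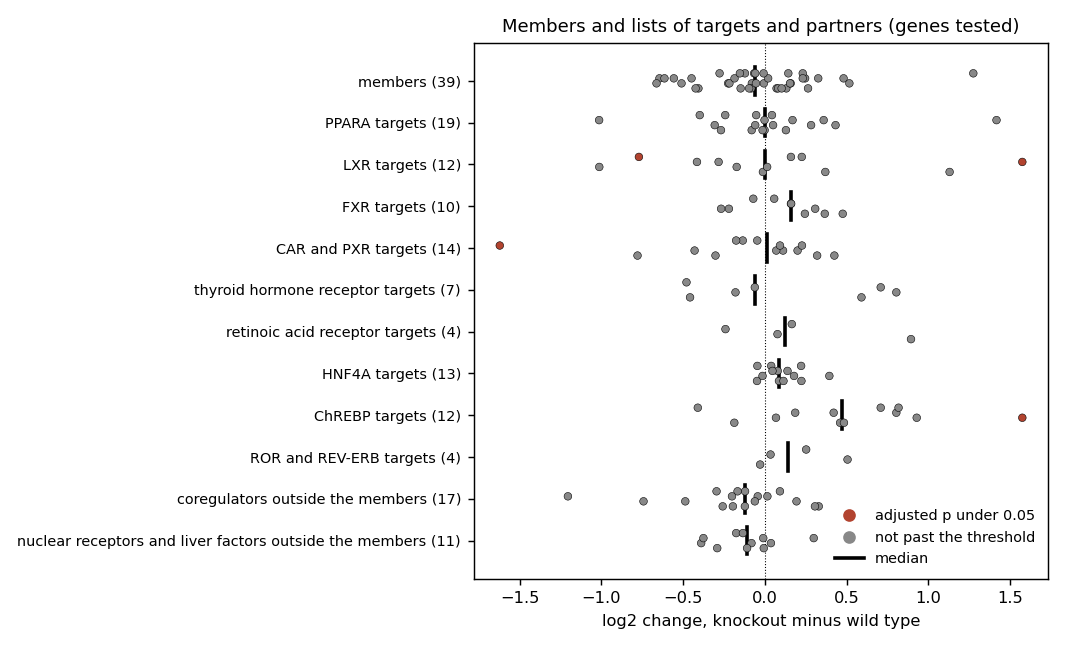
Log2 change (knockout minus wild type) of each tested gene in the members and in 11 lists of targets, coregulators and other factors, with a bar at each median and the number tested in brackets. Red points, for Fasn (in the LXR and ChREBP rows), Abcg8 and Cyp3a13, have an adjusted p under 0.05, and no member does.

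Both measured coregulators among the members had higher means in knockout liver. NRIP1, or RIP140, a ligand-dependent corepressor, read 2238, 2708 and 2622 on the knockout arrays and 2067, 2015 and 2193 on the wild-type arrays. The groups did not overlap, and the change was 0.26 ± 0.14 (95% interval -0.047 to 0.58). Its other tested probe set stood at 0.097 ± 0.18 with overlapping groups. NCOA1, the steroid receptor coactivator SRC-1, overlapped at 0.14 ± 0.14 and stood at -0.30 by its other tested probe set. Outside the members, 5 of 17 coregulators were higher and 12 lower, with a median of -0.12, 0 past the threshold and 2 at an unadjusted p under 0.05. Med1, the Mediator subunit that nuclear receptors contact, read 3659, 1738 and 1609 against 3542, 5828 and 6151. Knockout replicate 1 reached the wild-type range and the other knockout arrays did not, with a change of -1.21 ± 0.30 and an adjusted p of 0.149 by limma. Ppargc1b, a coactivator of mitochondrial and lipogenic genes, was at -0.49 ± 0.16, lower without overlap, and Cited2 was at 0.31 ± 0.15.

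Of 11 tested nuclear receptors and liver factors outside the 48, 2 were higher and 9 lower, with a median of -0.11, and 0 had an unadjusted p under 0.05. The 3 with the smallest p were Stat5b, the growth hormone signal transducer, at -0.38 ± 0.22, Gata6 at 0.30 ± 0.22 and Xbp1 at -0.13 ± 0.10. The glucocorticoid receptor gene Nr3c1 was at -0.082 ± 0.11 and Cebpa at -0.0096 ± 0.088, both with narrow intervals and overlapping groups. Over the lists of targets, coregulators and other factors fixed with the design, each gene was counted once. Of 119 tested genes, 3 were called, 1 higher and 2 lower, against 34 of all 8047 genes tested (0.423%). An unadjusted p under 0.05 was found for 35 (29.4%), against 10.3% of all genes. These lists were chosen with earlier results of these arrays known, so their shares are not independent evidence.

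Where a member had several tested probe sets, these often disagreed. Of 18 such members, 8 had the same sign on all tested probe sets and 10 did not. Nr2c2 stood at -0.45 by its brightest probe set and 0.28 by the other. Usf1 and Onecut1 kept their sign on both. Ppara, Pparg, Rxrb and Nfic were tested by 1 probe set each. For Nfic, 3 further probe sets below the filter had changes of 0.28, 0.12 and 0.11.

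**Figure D4:**
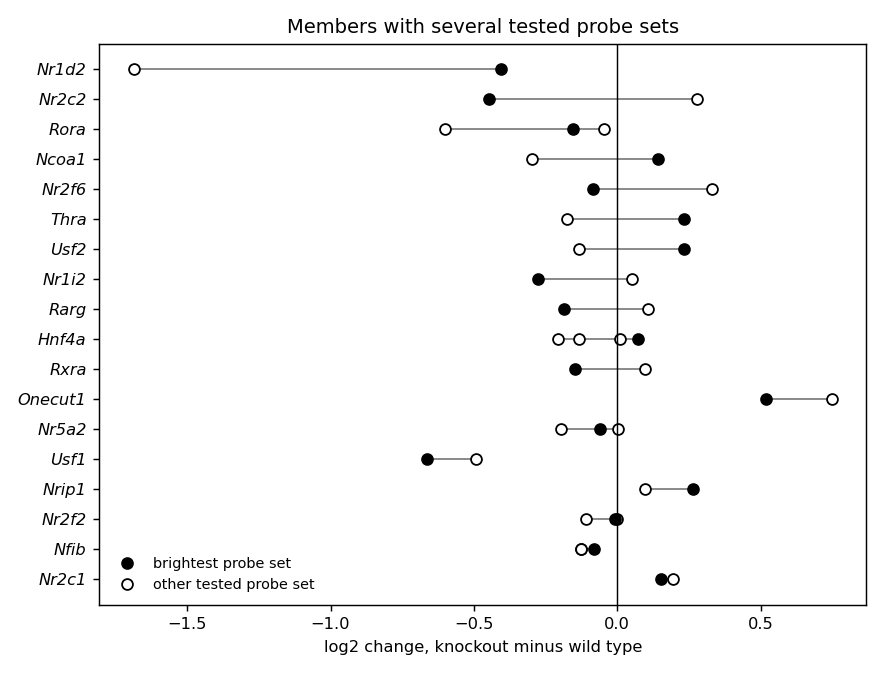
Log2 change (knockout minus wild type) of every tested probe set for the 18 members with several, filled for the brightest and open for the others, joined by a line per gene. The points of 10 genes fall on both sides of 0, and the open Nr1d2 point comes from a probe set below background on 2 knockout arrays.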

How the data were processed

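Liver RNA from 3 knockout and 3 wild-type mice was hybridised to 1 Affymetrix array per sample. The deposited table holds an intensity per probe set on a linear scale without units, made by the authors with GCOS 1.2 per the submitters' processing notes; the rule behind their common scaling and the genome build are not given in the sources used here. Probe sets were named from the platform annotation, which gave 20380 of 22626 probe sets 1 gene; 64 controls were left out. A pseudocount of 16 was added and log2 taken of the deposited intensities. The brighter 60% of probe sets, ranked on their mean over the 6 arrays (13576), were fitted with limma 3.58.1 in R 4.3.3 (lmFit, eBayes with an intensity trend), and p-values were adjusted by Benjamini-Hochberg over all of them, with 0.05 as the threshold. The number of arrays limits the precision. The script was tested on simulated data. The members and the gene lists were chosen with earlier results of these data known. Values in every array are given for members with an unadjusted p under 0.05 and for a list of leading receptors and factors, and in each target list for genes past the threshold and up to 3 with the smallest p. Alternatives were a pseudocount of 1 and others 4 and 16 times the main one, centring arrays on their medians, quantile normalization, the brighter 40% of probe sets or all of them, no intensity trend, averaging a gene's probe sets, the replicate number as a block, and omitting 1 array at a time. The count at an unadjusted p under 0.05 and the lists of PPARG targets and adipocyte markers were added after seeing the data.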

Additional observations from a re-analysis of the deposited data

How the results depend on the processing

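The count of 0 members called held under the 10 planned settings that keep all 6 arrays, and ran from 0 to 1 with 1 array left out in turn. The 1 was Ppara without knockout replicate 3. Ppara kept its sign under all 16 settings (-0.68 to -0.42, adjusted p 0.0437 to 0.420 by limma, the highest without the intensity trend), and Pparg kept its sign too (0.89 to 1.52, adjusted p 0.139 to 0.402). The adjusted p of Pparg covers 15 settings, because its dim probe set was not tested under the upper 40% filter. Of the 39 members, 0 to 6 changed sign under a setting, the most with the mean of all probe sets or without knockout replicate 1. The member count at an unadjusted p under 0.05, 6 in the report, was added after seeing the data. It ran from 3 (without wild-type replicate 3) to 7 (without knockout replicate 1 or wild-type replicate 1). The calls over all probe sets, 51 in the report, became 85 with a pseudocount 16 times the main one and 7 without the intensity trend, and ran from 21 (without wild-type replicate 3) to 57 with 1 array left out, at 23 without wild-type replicate 1. The 3 calls in the target and coregulator lists became 5 with pseudocounts 4 and 16 times the main one, quantile normalization or the upper 40% filter, and 0 without the trend. With the replicate number as a replicate block, 27 probe sets were called. Deviations from the group mean correlated at -0.059, -0.060 and -0.065 between same-numbered arrays, and at -0.020 to 0.076 between differently numbered ones. With 3 arrays per group, such small values cannot show whether or not the numbers pair the samples. The cause of these shifts was not tested. The filter on dim probe sets left 6 members out of the main test. The 95% intervals of 7 tested members, Pparg, Rxrg, Nr4a1, Nr4a2, Onecut1, Foxa1 and Usf1, reach past 2-fold.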

Other observations

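A few genes of the target lists lay at the edge of detection, below the filter, and are given as values with no test and no fold; they were picked after the values were seen. Npas2, a clock activator and known target of the REV-ERB and ROR proteins, read 276, 77.7 and 206 on the knockout arrays and 27.9, 48.3 and 27.6 on the wild-type arrays. Its probe set was above background in 2 of 3 knockout samples and in 0 of 3 wild-type samples. Slc51a, a subunit of the bile acid exporter that FXR induces, read 239.7, 58.8 and 126 on the knockout arrays and 459, 346 and 246 on the wild-type arrays, above background in 1 of 3 knockout and 3 of 3 wild-type samples. Cidea, a lipid droplet protein induced by PPARG, read 185, 70.1 and 38.0 on the knockout arrays and 297, 239.6 and 550.1 on the wild-type arrays, also above background in 1 of 3 knockout and 3 of 3 wild-type samples. The knockout values were all lower than the wild-type values for Slc51a and Cidea and all higher for Npas2.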
